A study of Homo sapiens with 42 samples.

Results

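The comparison described here sets the undosed arrays of a Bmi1-shRNA line against those of a Ctl-shRNA line. Both lines were made from RPMI-8226, an established line of human multiple myeloma, a cancer of plasma cells. The Bmi1-shRNA line carries an inducible hairpin against BMI1 and the Ctl-shRNA line an inducible control hairpin, each brought in by stable infection. Doxycycline at 100 ng/ml switches the hairpins on, and none was given in the arrays compared here. The members were chosen by title: 12 Bmi1-shRNA arrays and 12 Ctl-shRNA arrays, 3 of each line at 0, 24, 32 and 48 h, which makes 24 of the 42 arrays of the series. The other 18 arrays, 9 of each line, had received doxycycline for 24, 32 or 48 h. Cells of all groups grew in medium with 1% serum. The labels do not say whether a line was a clone or a pool of cells, so a line effect here is that of 1 derivative a side. The replicate numbers are not said to be separate cultures, so the p-values measure only the spread between these arrays, which may be technical.

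BMI1 is a subunit of Polycomb repressive complex 1, which helps keep developmental genes silent. Plasma cells are the antibody-secreting end stage of B cells, held in that state by the transcription factors IRF4, PRDM1 and XBP1. On the way from B cell to plasma cell the MHC class II genes and the surface protein MS4A1 (CD20) are normally switched off, while CD38 and SDC1 (CD138) come on. RPMI-8226 is known for a translocation that drives the transcription factor MAF, whose targets include the cyclin gene CCND2. Sublines of one cancer line are known to differ from each other in chromosome content and in which genes are silenced. Chromosome content and DNA methylation were not measured in these samples.

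The arrays read messenger RNA as a MAS5 signal, a linear intensity on which every array had been scaled to the same mean. Fold changes are on the scale log2(signal + 5.4), averaged over the 4 times with equal weight. A gene is called where its p, adjusted by Benjamini-Hochberg over 14705 genes, lies under 0.05 (limma, two-sided). In median signal the arrays lay between 16.0 and 22.5, so a signal under about 16 to 22 is in the dim part of an array. Labels conflict for the Bmi1-shRNA arrays at 0 h, which by title are undosed, by characteristics dosed, and by source name of the control line. The titles were used. Their profiles correlated at r = 0.978 to 0.984 with the other undosed Bmi1-shRNA arrays and at 0.960 to 0.967 with the Ctl-shRNA arrays, across genes. BMI1 read 1069, 1009 and 1018 on those arrays. The first principal component of the 24 undosed arrays held 37.1% of their variance, and the second 6%.

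BMI1 itself differed a little without doxycycline. Its signal had a lowest, median and highest value of 758, 1014 and 1129 on the Bmi1-shRNA arrays, against 1117, 1231 and 1297 on the Ctl-shRNA arrays, and the groups overlapped. The log2 fold change was -0.31 (SE 0.050, adjusted p = 1.65e-06, limma). In the dosed arrays, where the hairpin is induced, it was -2.79. The probe set of BMI1 is also annotated to the readthrough transcript COMMD3-BMI1.

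The undosed lines differed across a large share of the genes measured, mostly by small amounts. Of 14705 genes, 6977 were called (47.4%), 3418 of them higher in the Bmi1-shRNA line (23.2%) and 3559 lower (24.2%). The median absolute log2 fold change was 0.33 among called genes and 0.19 among all genes, and the signed median of all genes was 0.001. A difference of at least 2-fold was met by 332 called genes higher in the Bmi1-shRNA line (2.26%) and 311 lower (2.11%). At 4-fold or more the counts were 80 higher and 71 lower, and at 8-fold or more 25 higher and 22 lower. The 12 arrays of the Bmi1-shRNA line all lay above the 12 of the Ctl-shRNA line for 1035 genes (7.04%) and all below for 882 genes (6%). Genes with a 2-fold difference were most frequent at mean signals between 25.2 and 129, where 8.54% of genes met it, against 1.39% at mean signals above 481.

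Of the 6977 called genes 6343 had 1 sign at all 4 times. All 643 genes with a 2-fold difference had the same sign at 0, 24, 32 and 48 h, and 437 of them were at least 2-fold at each time. Single times, with 3 arrays a side, called 28.3% of genes at 0 h, 29.9% at 24 h, 27.6% at 32 h and 27% at 48 h. The mean of 24, 32 and 48 h, which leaves out the arrays with conflicting labels, called 6459 genes (43.9%). It called all 643 genes of the 2-fold set in the same direction.

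The 18 dosed arrays, of the same lines, gave nearly the same picture for the large differences. Their means did not enter the undosed difference, but their spread entered its p-values and their signals the filter of probe sets. The dosed arrays are thus not an independent check. The line difference with doxycycline called 6801 genes (46.2%). It called 326 of the 332 genes that were 2-fold higher (98.2%) and 304 of the 311 that were 2-fold lower (97.7%) in the same direction. ARHGAP5-AS1 was the only gene of the 643 with the opposite sign there. Across genes, the undosed and dosed line differences correlated at r = 0.889 over all genes and 0.992 over the 643, as a description, since genes are not independent replicates. The dosed difference also holds the response of each line to doxycycline and to its own induced hairpin. BMI1, the target of one hairpin, differed more with doxycycline than without it. IDH1, an isocitrate dehydrogenase, stood off the diagonal as well, at -0.42 without and -3.12 with doxycycline, though 1 of its other 2 probe sets had the opposite sign without doxycycline. FAS, a death receptor, was 0.65 without doxycycline and 0.03 with it. Which line's response moved IDH1 or FAS was not tested.

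**Figure D1:**
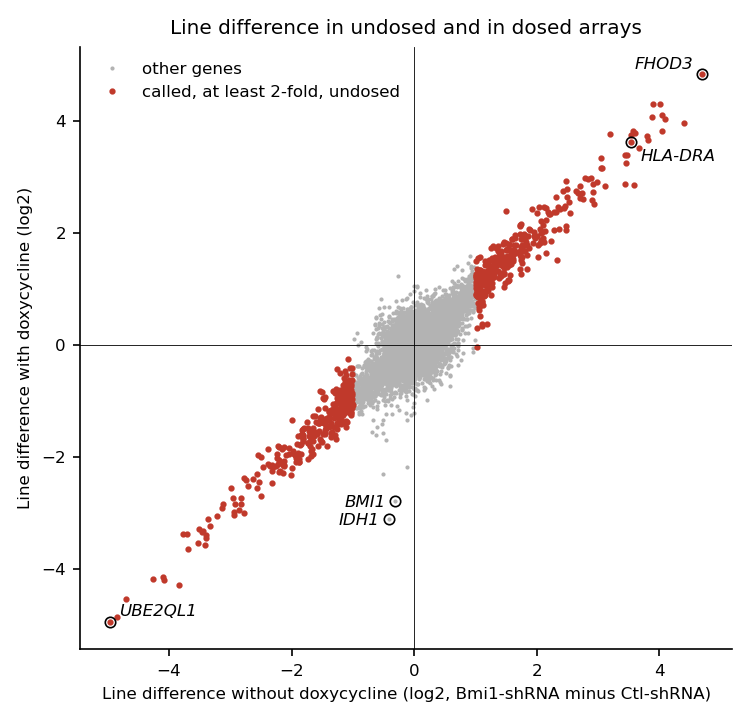
Each point is 1 of 14705 genes. The horizontal axis gives the line difference without doxycycline (log2, Bmi1-shRNA minus Ctl-shRNA, 12 arrays a side) and the vertical axis the same difference with doxycycline (9 arrays a side). Red points are the 643 genes called at 2-fold or more without doxycycline, which lie along the diagonal, while BMI1 and IDH1 lie well below it.

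Named first are the 12 genes with the highest and the 12 with the lowest log2 fold change, out of those called, of 1 sign at all times and without overlap of arrays. The promoters of 4 of them are printed as examples of genes read in one line and not above the array median in the other. In the Bmi1-shRNA line OLFM4 and FAR2 were read and UBE2QL1 and CDHR1 were not above the array median, and the Ctl-shRNA line showed the reverse. The sequences run from 250 bases before to 50 bases after the annotated start, 5′ to 3′ on the gene's strand (RefSeq, GRCh38.p14), with each CG, the dinucleotide at which vertebrate DNA is methylated, in capitals.

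UBE2QL1: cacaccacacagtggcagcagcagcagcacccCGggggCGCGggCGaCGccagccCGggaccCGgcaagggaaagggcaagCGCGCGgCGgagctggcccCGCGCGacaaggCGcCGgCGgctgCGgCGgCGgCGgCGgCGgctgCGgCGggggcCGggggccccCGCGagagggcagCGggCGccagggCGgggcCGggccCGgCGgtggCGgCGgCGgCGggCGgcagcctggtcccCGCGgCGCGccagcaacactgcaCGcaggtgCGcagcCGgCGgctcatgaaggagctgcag

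CDHR1: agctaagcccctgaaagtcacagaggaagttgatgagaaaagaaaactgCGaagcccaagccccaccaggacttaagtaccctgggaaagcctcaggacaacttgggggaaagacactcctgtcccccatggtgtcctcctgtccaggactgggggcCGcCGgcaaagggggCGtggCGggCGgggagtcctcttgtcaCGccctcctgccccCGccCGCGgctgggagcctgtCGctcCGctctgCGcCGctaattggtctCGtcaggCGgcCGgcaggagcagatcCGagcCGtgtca

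OLFM4: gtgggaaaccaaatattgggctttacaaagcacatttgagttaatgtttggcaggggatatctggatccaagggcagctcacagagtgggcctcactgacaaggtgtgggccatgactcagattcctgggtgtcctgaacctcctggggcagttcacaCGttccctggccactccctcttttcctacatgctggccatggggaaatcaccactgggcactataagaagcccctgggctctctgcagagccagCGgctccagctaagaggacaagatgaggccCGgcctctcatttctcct

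FAR2: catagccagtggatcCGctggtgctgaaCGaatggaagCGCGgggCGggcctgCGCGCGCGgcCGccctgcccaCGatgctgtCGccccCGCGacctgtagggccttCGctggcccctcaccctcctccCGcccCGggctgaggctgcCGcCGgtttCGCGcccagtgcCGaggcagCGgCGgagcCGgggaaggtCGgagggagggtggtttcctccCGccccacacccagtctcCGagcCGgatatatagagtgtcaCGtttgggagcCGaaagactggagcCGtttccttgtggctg

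The UBE2QL1 window (chr5:6448609-6448908, plus strand) holds 47 CG, that of CDHR1 (chr10:84194287-84194586, plus strand) 19, that of OLFM4 (chr13:53028563-53028862, plus strand) 3 and that of FAR2 (chr12:29149028-29149327, plus strand) 32. CG reads the same on both strands. Among 27305 promoters of this length in the table, 95.8% held at least 1 CG, the median was 14 and the middle 50% lay between 3 and 28. The windows therefore range from CG-poor to very CG-rich. A comparison of CG counts between gene groups was void, because 243 of the 332 genes that were 2-fold higher (73.2%) had an entry, under the 80% required.

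Highest of all was FHOD3, a formin that builds actin filaments and is best known from heart muscle. Its signal was 346, 406 and 440 (lowest, median and highest) on the Bmi1-shRNA arrays, against 3, 9.95 and 23 on the Ctl-shRNA arrays. The log2 fold change was 4.70 (SE 0.151, adjusted p = 9.76e-26, limma). OLFM4, a secreted glycoprotein known from intestinal stem cells, read 184, 216 and 244 in the Bmi1-shRNA line, against 0.3, 5.7 and 12.1 in the Ctl-shRNA line. Its log2 fold change was 4.40 (SE 0.117). LIN28B, the RNA-binding protein that blocks maturation of let-7 microRNAs, read 83.3, 111 and 132 in the Bmi1-shRNA line and 0.5, 1.85 and 7.8 in the Ctl-shRNA line. BHLHE41, a circadian transcriptional repressor, read 484, 521 and 586 in the Bmi1-shRNA line, against 17.2, 25.7 and 39.9 in the Ctl-shRNA line. None of these genes overlapped between the lines on any array, which the rule that chose them required.

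The other 8 of the 12 highest were BEND4 (log2 fold change 4.10), the P-cadherin gene CDH3 (4.04), the long non-coding RNA LINC00588 (4.01), the fatty acyl-CoA reductase gene FAR2 (3.90), CPXM1 (3.88), LAMB3 (3.79), QPCT (3.67) and SCEL (3.61). LAMB3 codes for a chain of laminin-332 and SCEL for sciellin, a protein of cornified epithelium. QPCT codes for glutaminyl cyclase. FAR2 read 160, 184 and 220 on the Bmi1-shRNA arrays, against 1.8, 8.8 and 14.2 on the Ctl-shRNA arrays.

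Lowest of all was UBE2QL1, which is annotated as a member of the ubiquitin-conjugating enzyme family. It read 0.8, 5.65 and 12 (lowest, median and highest) on the Bmi1-shRNA arrays, against 308, 338 and 388 on the Ctl-shRNA arrays. The log2 fold change was -4.96 (SE 0.101, adjusted p = 2.28e-32, limma), and its other probe set gave -4.03. CDHR1, a cadherin known from photoreceptors, read 0.7, 1.35 and 9.2 in the Bmi1-shRNA line, against 161, 210 and 260 in the Ctl-shRNA line. Its log2 fold change was -4.85, while its dimmer second probe set gave -0.70. GJA1, the gap junction protein connexin 43, was measured in both lines at 82.2, 104 and 125 in the Bmi1-shRNA line, against 1436, 1589 and 1686 in the Ctl-shRNA line. IL2RG, the common gamma chain of several interleukin receptors, read 1.5, 17.9 and 26 in the Bmi1-shRNA line, against 257, 279 and 386 in the Ctl-shRNA line.

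The other 8 of the 12 lowest were B3GAT2 (log2 fold change -4.71), HSPB8 (-4.26), CT83 (-4.09), ARMCX3 (-4.07), IFITM3 (-3.71), MAP4K4 (-3.68), TCEAL8 (-3.53) and SMCO4 (-3.51). HSPB8 is a small heat shock protein, CT83 a cancer-testis antigen, MAP4K4 a protein kinase of stress signalling and IFITM3 a membrane protein that restricts virus entry. All 4 probe sets of MAP4K4 were lower, between -3.68 and -2.32. The second probe set of HSPB8 gave -0.19.

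By a stricter rule 7 genes were switch-like, with all 12 arrays of one line below their array's median and all 12 of the other above their array's 75th percentile. OLFM4, LINC00588, FAR2 and MAMDC2 were on in the Bmi1-shRNA line, and UBE2QL1, CDHR1 and ARMCX3 in the Ctl-shRNA line. ARMCX3 is an X-linked gene for a mitochondrial outer membrane protein. For such genes the size of the fold change depends on the pseudocount: UBE2QL1 was -5.76 with a pseudocount of 1 and -3.86 with one at the median signal, and OLFM4 was 5.29 and 3.27.

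**Figure D2:**
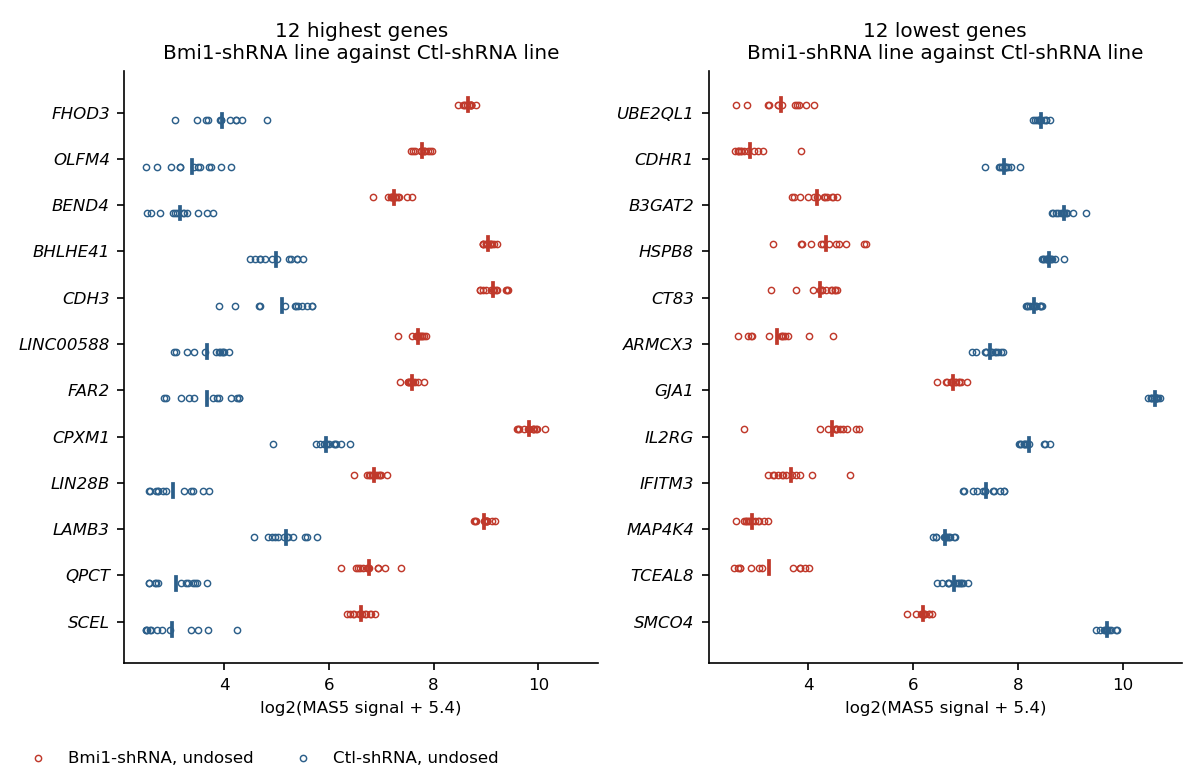
Signals of the 12 highest (left) and 12 lowest (right) genes on each of the 24 undosed arrays. The horizontal axis is log2(MAS5 signal + 5.4). Each circle is 1 array, red for the Bmi1-shRNA line and blue for the Ctl-shRNA line, and the vertical tick is the mean of 12 arrays. For none of the 24 genes do the circles of the 2 colours overlap, which the rule that chose them required. Values at the left edge are dim signals.

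Regulators of plasma cell identity were read in both lines and differed by small amounts. Of 19 transcription factors of plasma and B cells, 6 were higher, 6 lower and 7 not called (63.2% called, against 47.4% of all genes). The list median was -0.00 against 0.001 for all genes. The log2 fold change was 0.19 for IRF4 (adjusted p = 5.93e-07, limma), 0.12 for PRDM1 and -0.00 for XBP1 (adjusted p = 0.938). The summed signal of the 10 plasma cell markers ranged from 19241 to 27844 in the Bmi1-shRNA line and from 20463 to 25070 in the Ctl-shRNA line. Of these markers SLAMF7 was below the array median on all 24 arrays. JCHAIN, the joining chain of polymeric antibodies, averaged 9770 ± 1944 in the Bmi1-shRNA line and 9283 ± 1352 in the Ctl-shRNA line (SD, n = 12 each), a difference smaller than that spread. BCL6 and BACH2, repressors of the germinal centre and memory B cell stages, were higher at 1.27 and 0.96, from dim levels. Their second probe sets gave 0.22 and 0.48.

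Surface proteins of B and plasma cells differed by small to large amounts. CD38 read 393, 449 and 530 (lowest, median and highest) on the Bmi1-shRNA arrays, against 190, 233 and 316 on the Ctl-shRNA arrays, with no overlap and a log2 fold change of 0.93 (SE 0.044, adjusted p = 2.27e-20, limma). SDC1, the usual marker of myeloma cells, was slightly lower at -0.20, with 462, 759 and 873 in the Bmi1-shRNA line and 654, 815 and 934 in the Ctl-shRNA line. CD44, the hyaluronan receptor, was on in the Bmi1-shRNA line at 162, 227 and 280, against 8.7, 16.4 and 21.3 in the Ctl-shRNA line. Its log2 fold change was 3.47, and its 7 other probe sets lay between 0.64 and 2.79. MS4A1 (CD20) rose to 89.5, 114 and 137 in the Bmi1-shRNA line, against 12.6, 17.9 and 26.9 in the Ctl-shRNA line (log2 fold change 2.31, adjusted p = 5.13e-23, limma). PTPRC (CD45), the phosphatase that B cells carry and plasma cells often lose, was 2.27, and the chemokine receptor gene CCR10 was -2.04. Of the 28 measured genes of this list 9 were higher and 8 lower, 6 and 2 of them by 2-fold or more. The share called was 60.7%, against 47.4% of all genes.

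MHC class II genes, which present antigen to helper T cells, rose together. Of 11 measured genes of this list 7 were higher, all by at least 2-fold, 0 were lower, and the list median was 1.62 against 0.001 for all genes. Among all genes 23.2% were called higher, and 2.26% were called higher by 2-fold or more. HLA-DRA, the alpha chain of the DR molecule, read 517, 573 and 736 (lowest, median and highest) on the Bmi1-shRNA arrays, against 24.9, 45.1 and 73.5 on the Ctl-shRNA arrays. Its log2 fold change was 3.54 (SE 0.099, adjusted p = 1.09e-27, limma), and its second probe set gave 3.50. CD74, the chaperone that escorts class II molecules, read 1643, 1861 and 2131 in the Bmi1-shRNA line, against 231, 263 and 408 in the Ctl-shRNA line (log2 fold change 2.71). HLA-DRB1 was 2.46, HLA-DPB1 2.09, HLA-DMA 1.79, HLA-DMB 1.62 and HLA-DPA1 1.52, and none of the 7 overlapped between the lines. The probe set of HLA-DRB1 is of a type that can read near-identical DR genes as well.

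CIITA, the master activator of class II transcription, was dim in both lines, at 3.2, 21.9 and 41.3 in the Bmi1-shRNA line and 7.1, 17.1 and 29.7 in the Ctl-shRNA line. Its log2 fold change was 0.21 (SE 0.233, adjusted p = 0.496, limma). HLA-DQB1, HLA-DOA and HLA-DOB did not pass the test either. Of the 5 measured mature B cell markers MS4A1 moved with the class II genes, and the summed signal of the 5 was 152 to 262 in the Bmi1-shRNA line, against 83.4 to 154 in the Ctl-shRNA line. PAX5, CD22 and CD79B were not called, at -0.23, -0.09 and -0.19. Of 4 markers of monocytes, whose cells also carry class II, CD14, LYZ and CD163 were below the array median on all 24 arrays. The other, CSF1R, was called higher, at a mean of 26.3 in the Bmi1-shRNA line against 19.1 in the Ctl-shRNA line (adjusted p = 0.0247, limma). The 4 summed to 23 to 55.8 in the Bmi1-shRNA line and 15.1 to 44.2 in the Ctl-shRNA line, and their part in the class II difference was not tested. At each time the 7 genes were higher, HLA-DRA by 3.24 at 0 h, 3.33 at 24 h, 3.69 at 32 h and 3.88 at 48 h.

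MHC class I genes differed by small amounts. Of 22 class I and antigen processing genes 4 were higher and 11 lower, none by 2-fold, against 23.2% higher and 24.2% lower among all genes, and the list median was -0.14. HLA-F was -0.58, HLA-G -0.40 and HLA-E -0.38. These probe sets can read other class I genes. HLA-F read 1100, 1235 and 1368 in the Bmi1-shRNA line, against 1554, 1854 and 2080 in the Ctl-shRNA line.

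Among 36 interferon-stimulated genes 8 were higher and 10 lower, and the 3 genes lower by 2-fold or more were all IFITM genes, which are neighbours on chromosome 11. IFITM1 fell to 115, 167 and 218 in the Bmi1-shRNA line, against 1472, 1837 and 2071 in the Ctl-shRNA line (log2 fold change -3.45, SE 0.061, adjusted p = 3.84e-34, limma). IFITM3 was -3.71 and IFITM2 -1.85. The sequences of IFITM genes are close, so their probe sets may share signal. No gene of this list was higher by 2-fold, which says little, since only 2.26% of all genes were. The chemokine genes CXCL9 and CXCL10, which interferon gamma induces, were higher at 2.49 and 0.86.

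Epithelial and adhesion genes were called in both directions. Of 22 epithelial genes 10 were higher and 4 lower, 63.6% called against 47.4% of all genes, with a list median of 0.08. CDH1, E-cadherin, read 313, 373 and 407 (lowest, median and highest) on the Bmi1-shRNA arrays, against 37.5, 45 and 65.8 on the Ctl-shRNA arrays, without overlap (log2 fold change 2.88, SE 0.066, adjusted p = 1.07e-30, limma). The tight junction genes CLDN7 and TJP1 were 1.63 and 1.17, and the keratin gene KRT18 was 0.47. EPCAM read 2995, 3556 and 3746 in the Bmi1-shRNA line and 2481, 3135 and 3625 in the Ctl-shRNA line, so this epithelial gene was bright in both. The summed signal of the 5 epithelial markers was 5517 to 6586 in the Bmi1-shRNA line, against 4014 to 5588 in the Ctl-shRNA line, and KRT19 was below the array median on all 24 arrays. Among 14 cadherins 5 were higher and 3 lower (57.1% called), with CDH3 and CDH1 at one end and CDHR1 at the other. Among 18 integrins 2 were higher and 6 lower (44.4% called), with ITGB8 at 1.48 and ITGA4, a receptor for VCAM1 and fibronectin, at -1.65.

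Of 49 developmental transcription factors outside the HOX clusters 5 were higher and 16 lower, 1 and 7 of them by 2-fold or more. The share called, 42.9%, was near the 47.4% of all genes, and the list median was -0.03. SOX2, a factor of stem cells and neural progenitors, read 25.5, 30.1 and 53.3 (lowest, median and highest) on the Bmi1-shRNA arrays, against 114, 138 and 201 on the Ctl-shRNA arrays. Its log2 fold change was -2.00 (SE 0.087, adjusted p = 1.96e-21, limma), and 3 dimmer probe sets lay between -1.14 and -0.20. ZIC2 was -2.78 and OTX2 -2.13, both neural factors. SOX9, a factor of cartilage and many epithelia, was higher at 1.79. Of 17 HOX genes 3 were higher, 1 lower and 13 not called (23.5% called). HOXB7 rose most of the 3, to 213, 235 and 290 in the Bmi1-shRNA line, against 18.5, 30.5 and 44.3 in the Ctl-shRNA line (log2 fold change 2.79), and its cluster neighbour HOXB6 was 1.37.

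The Polycomb subunits themselves differed by small amounts. Of 23 measured PRC1 genes, BMI1 among them, 4 were higher and 9 lower (56.5% called, against 47.4% of all genes). Of 13 PRC2 genes 1 was higher and 7 lower (61.5% called), with JARID2 at -0.60 and the methyltransferase gene EZH2 at -0.15. The median absolute log2 fold change was 0.16 for PRC1 and 0.13 for PRC2 genes, against 0.19 for all genes. None was 2-fold, but only 2.26% of all genes were 2-fold higher and 2.11% lower, so in lists this short that says little. Of 16 genes of DNA methylation, the methyltransferase gene DNMT3A was higher at 1.09, with 135, 158 and 181 in the Bmi1-shRNA line and 62.2, 71.6 and 87 in the Ctl-shRNA line. TET2, an enzyme that starts demethylation, was -1.26, but its second probe set was called the opposite way at 0.68, so the direction of TET2 is uncertain.

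Cancer-testis genes, normally silent outside the germ line, were split. Of 19 measured, 6 were higher and 5 lower (57.9% called, against 47.4% of all genes), 2 and 4 of them by 2-fold or more. MAGEA12 read 959, 1019 and 1075 (lowest, median and highest) on the Bmi1-shRNA arrays, against 70.6, 89.3 and 105 on the Ctl-shRNA arrays (log2 fold change 3.46, SE 0.067, adjusted p = 6.4e-33, limma). Its probe set can read related MAGEA genes. ACTL8 fell to 93.7, 112 and 145 in the Bmi1-shRNA line, against 758, 831 and 939 in the Ctl-shRNA line (log2 fold change -2.83). PAGE5 was -3.37 and MAGEB2 -1.71. Among 30 imprinted genes 10 were higher and 4 lower (46.7% called). PEG3 was on in the Bmi1-shRNA line at 44, 51.6 and 62.6, against 0.3, 5.2 and 15 in the Ctl-shRNA line, while the neighbours SGCE and PEG10 on chromosome 7 went opposite ways, at -1.03 and 0.73.

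Of the chromosomes, X had the largest share of genes with a 2-fold difference, 10.4%, made of 15 higher and 33 lower genes. Among all genes 2.26% were 2-fold higher and 2.11% lower. The small families ARMCX, BEX and TCEAL lie close together there with NXF3, and 11 of these genes were measured; they were looked up after 2 of them stood among the lowest genes. ARMCX3 (-4.07), TCEAL8 (-3.53), ARMCX6 (-3.22), BEX5 (-2.63), ARMCX5 (-1.56), NXF3 (-1.25) and TCEAL1 (-0.88) were lower. ARMCX6 read 19.7, 31.5 and 38.4 in the Bmi1-shRNA line, against 294, 320 and 367 in the Ctl-shRNA line. Their neighbour TCEAL4 was bright in both lines, with a log2 fold change of -0.10, at 509, 586 and 709 in the Bmi1-shRNA line and 559, 620 and 691 in the Ctl-shRNA line. BEX1 was higher at 0.59, and ARMCX4 and TCEAL3 did not pass the test. The 2 sets of 20 neighbouring measured genes that hold the 11 had medians of -0.1 and -0.09, near the X median of -0.067.

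Secreted factors and their receptors were called in both directions. Of 46 cytokines and chemokines 17 were higher and 9 lower (56.5% called), and of 57 receptors 21 were higher and 13 lower (59.6% called), against 23.2% higher and 24.2% lower among all genes. CXCL9, a chemokine for activated T cells, read 546, 656 and 788 (lowest, median and highest) on the Bmi1-shRNA arrays, against 79, 96 and 225 on the Ctl-shRNA arrays. CCL2, a chemokine for monocytes, was higher at 1.72 and HGF, hepatocyte growth factor, at 1.55. Among receptors TGFBR1, which transmits TGF-beta signals, read 690, 803 and 884 in the Bmi1-shRNA line, against 194, 216 and 230 in the Ctl-shRNA line (log2 fold change 1.88, SE 0.033, adjusted p = 1.64e-34, limma). NRP2, a coreceptor for VEGF and semaphorins, was 2.11, with its 10 other probe sets between 0.05 and 1.89. IL2RG was -3.77 and LIFR, the receptor for leukaemia inhibitory factor, was -2.93. The 3 other LIFR probe sets were weaker, between -1.72 and -0.29.

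In Wnt signalling ligands and a receptor moved in different directions. WNT5A fell to 15.9, 31.4 and 45.8 in the Bmi1-shRNA line, against 302, 378 and 437 in the Ctl-shRNA line (log2 fold change -3.39, SE 0.073, adjusted p = 1.85e-31, limma). WNT5B was 1.70, and ROR1, a receptor for WNT5A, was 1.74. DTX4, a regulator of Notch, was 1.63. Of the 44 Wnt and Notch genes measured, 10 were higher and 16 lower (59.1% called, against 47.4% of all genes).

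Of the neuronal and synaptic genes NLGN1, a synaptic adhesion protein, fell to 0.2, 1.25 and 6.8 in the Bmi1-shRNA line, against 63.8, 72.1 and 99.6 in the Ctl-shRNA line. GRIN2A, an NMDA receptor subunit, was 2.63, and GAP43, a growth cone protein, was 1.95. SLITRK5 was -0.61. Of 30 measured genes of this list 8 were higher and 11 lower (63.3% called, against 47.4% of all genes).

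Genes of the MAF programme were called in both directions, while MAF itself did not pass the test. MAF read 4788, 5974 and 6928 (lowest, median and highest) on the Bmi1-shRNA arrays and 4264, 5908 and 7106 on the Ctl-shRNA arrays, with a log2 fold change of 0.08 (SE 0.058, adjusted p = 0.278, limma). Without 0 h MAF was called higher, at 0.19. CCND2 rose to 6489, 6942 and 7556 in the Bmi1-shRNA line, against 2926, 3314 and 3901 in the Ctl-shRNA line (log2 fold change 1.05, SE 0.039, adjusted p = 1.1e-23, limma). SPP1, osteopontin, was 1.49, and DEPTOR, an inhibitor of mTOR that myeloma cells overexpress, was 1.02. FGFR3 was -1.35 from a dim level, and its second probe set gave -0.44. Of 15 measured genes of this list 5 were higher and 5 lower (66.7% called, against 47.4% of all genes).

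Survival genes were shifted in both directions. BCL2 rose to 264, 305 and 355 in the Bmi1-shRNA line, against 155, 190 and 207 in the Ctl-shRNA line (log2 fold change 0.71, SE 0.052, adjusted p = 1.48e-14, limma). MCL1, on which many myeloma cells depend, fell to 964, 1063 and 1147 in the Bmi1-shRNA line, against 1328, 1434 and 1480 in the Ctl-shRNA line (log2 fold change -0.40). BCL2A1 was -2.99 and BCL2L1 0.61. BCL2L11 (BIM), which promotes cell death, was 0.43. Of 23 pro-apoptotic genes 10 were higher and 5 lower (65.2% called, against 47.4% of all genes). The death receptor genes FAS and TNFRSF10B were 0.65 and 0.66.

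Cell cycle genes were also mixed. CDKN2A, the INK4A and ARF locus that BMI1 is known to repress, was 0.40, at 2606, 2954 and 3112 in the Bmi1-shRNA line and 1945, 2174 and 2597 in the Ctl-shRNA line. Its neighbour CDKN2B (p15) was 1.53, CDKN1B (p27) 0.51 and CDKN1A (p21) -0.00 (adjusted p = 0.995). UBE2C, a ubiquitin-conjugating enzyme of the anaphase-promoting complex, rose to 305, 346 and 399 in the Bmi1-shRNA line, against 21.5, 39 and 52.3 in the Ctl-shRNA line (log2 fold change 3.04). FOXM1 was 0.71 and CDC25B 0.74. Of all 36 G2 and mitosis genes 12 were higher and 14 lower (72.2% called, against 47.4% of all genes), with a median of -0.04. MYC was 0.20.

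Genes of the ribosome, the proteasome and oxidative phosphorylation mostly differed by small amounts, and replication-dependent histone genes by more. The median absolute log2 fold change was 0.05, 0.1, 0.1 and 0.4 in that order, against 0.19 for all genes. Of 20 cytosolic ribosomal protein genes 1 was called, RPL8 at 0.17, and the list median was -0.04. Of 27 proteasome subunits 1 was higher and 13 lower (51.9% called, against 47.4% of all genes), with a median of -0.08. Among the lower were PSMD4 at -0.32 and the bortezomib target PSMB5 at -0.15. Of 36 genes of oxidative phosphorylation 6 were higher and 12 lower, from NDUFA9 at 0.79 to NDUFA8 at -0.37. Of 12 replication-dependent histone genes 8 were lower and 0 higher, with a median of -0.40. Among all genes 24.2% were lower and 23.2% higher. H2BC12 read 667, 763 and 943 (lowest, median and highest) on the Bmi1-shRNA arrays, against 1176, 1354 and 1789 on the Ctl-shRNA arrays.

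Metabolic and stress genes gave larger single differences. Of 29 ATF4 targets 4 were higher and 17 lower (72.4% called, against 47.4% of all genes), with a median of -0.19. PHGDH, the first enzyme of serine synthesis, fell to 138, 172 and 203 in the Bmi1-shRNA line, against 361, 450 and 561 in the Ctl-shRNA line (log2 fold change -1.36, SE 0.048, adjusted p = 1.47e-24, limma). PSAT1, the next enzyme, was -0.68, while TRIB3, a target of the same factor, was higher at 0.68. The aldo-keto reductase genes AKR1C1, AKR1C2 and AKR1C3, near-identical neighbours on chromosome 10, were -1.45, -1.62 and -1.47. In the hypoxia list EGLN3 was -1.46, EPAS1 -1.25 and the glucose transporter gene SLC2A3 1.77. In the unfolded protein response ATF6 was -0.91, ERN1 -0.56 and DERL2 1.24. The 3 other ATF6 probe sets lay between -0.34 and -0.30.

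**Figure D3:**
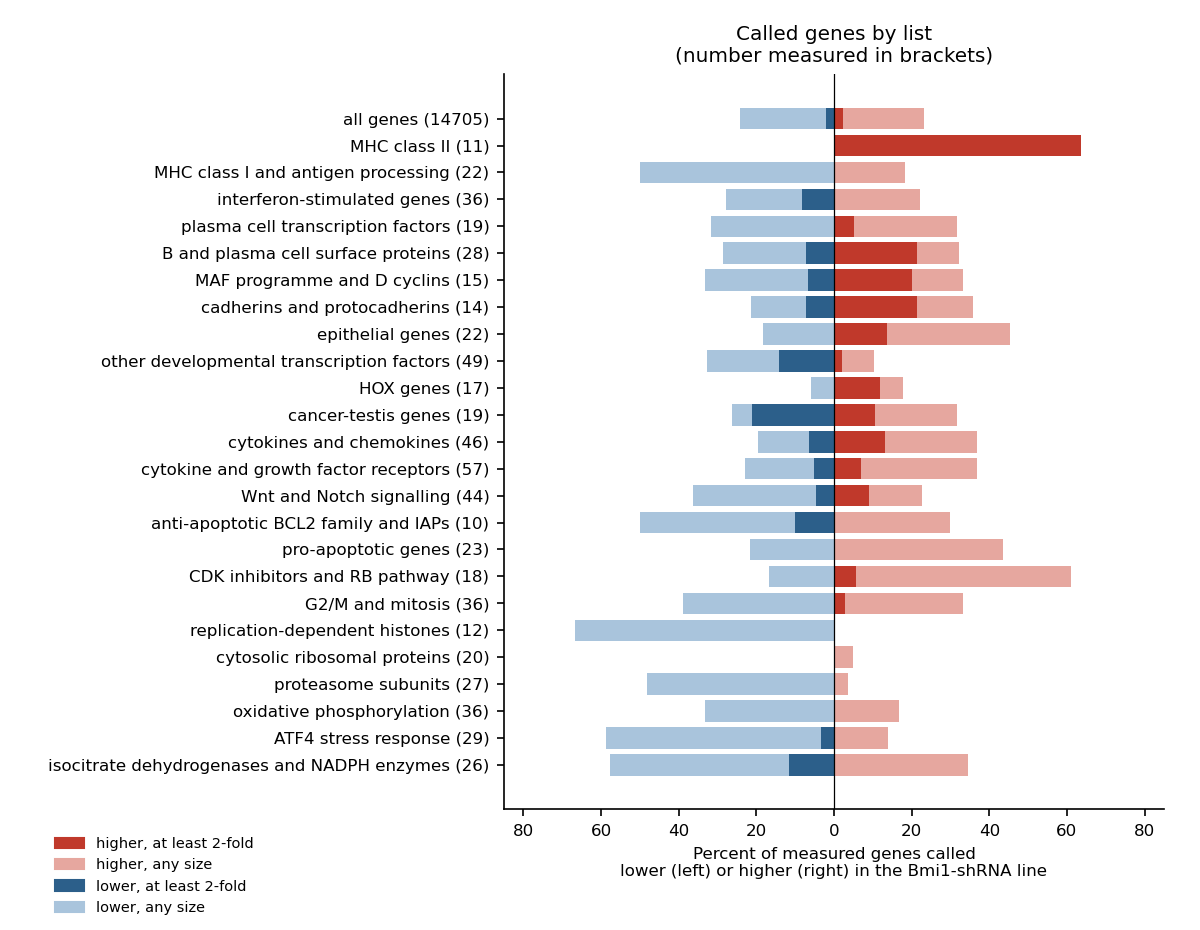
Percent of measured genes called lower (left, blue) or higher (right, red) in the Bmi1-shRNA line for 24 lists and for all genes, with the number measured in brackets. Dark parts are genes with at least a 2-fold difference. All genes stand at 24.2% lower and 23.2% higher, ribosomal protein genes are nearly all uncalled, and MHC class II genes are the only list shown with all its calls at 2-fold or more.

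Most markers of other cell types had low summed signals. T and NK cell markers summed to 42.1 to 99.9 in the Bmi1-shRNA line and 42.9 to 90.4 in the Ctl-shRNA line. Erythroid markers summed to 30 to 76.1 in the Bmi1-shRNA line and 26.9 to 53.9 in the Ctl-shRNA line, fibroblast markers to 117 to 208 in the Bmi1-shRNA line and 142 to 188 in the Ctl-shRNA line, and endothelial markers to 29.5 to 80.4 in the Bmi1-shRNA line and 23 to 59.7 in the Ctl-shRNA line. NKG7, COL3A1, CDH5 and KDR of these lists were below the array median on all 24 arrays, and the endothelial gene PECAM1 was called higher at 0.42. The monocyte gene S100A9 was lower at -2.21 and the macrophage gene MPEG1 higher at 1.04, both at low signals. The part of these markers in the line difference was not tested. As a sign of RNA quality, the GAPDH 3′ to 5′ signal ratio averaged 0.939 ± 0.020 in the Bmi1-shRNA line and 1.03 ± 0.043 in the Ctl-shRNA line (SD, n = 12 each). The ACTB ratio averaged 1.15 ± 0.029 in the Bmi1-shRNA line and 1.17 ± 0.034 in the Ctl-shRNA line. The part of the GAPDH ratio in the line difference was not tested.

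The differences were not spread evenly along the chromosomes. Genes were placed in the order of the RefSeq annotation and split into 735 runs of 20 neighbouring measured genes. Run medians ranged from -0.48 to 0.64 on the log2 scale, and 90% lay between -0.21 and 0.30. Long stretches of neighbouring runs had one sign. The stretches below were joined after the run medians were seen, so their medians are a description, with no test.

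On chromosome 8 all 26 runs had medians above 0.1, from 0.13 to 0.60. Of its 514 genes 59.9% were higher and 6.03% lower, against 23.2% and 24.2% of all genes, and the chromosome median was 0.325, a 1.25-fold difference. SLC39A14, a zinc and iron transporter gene on it, was 0.86, TNFRSF10B 0.66, BNIP3L 0.57 and CYC1 0.37. On chromosome 18 all 11 runs had medians between 0.13 and 0.34, and 58.2% of 213 genes were higher. BCL2, the zinc transporter gene SLC39A6 (0.42) and FHOD3 lie on it.

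Chromosome 20 changed level along its length. Its first 12 runs, from C20orf96 to DHX35, had a median of 0.491 (1.41-fold), with 159 of 240 genes higher (66.2%) and 2 lower. Among all genes 23.2% were higher and 24.2% lower. The last 9 runs of chromosome 20 had a median of 0.125. CDC25B, BCL2L1, TRIB3 and GINS1 (0.66), a replication factor, lie in the first part, where PLCB4, a phospholipase gene, reached 2.70. On chromosome 12 the first 6 runs, from IQSEC3 to CDKN1B, had a median of 0.460 (1.38-fold), with 73 of 120 genes higher and 3 lower. The other 33 runs had a median of -0.024. Several well measured genes of that first part were close to 2-fold: CCND2 (1.05), TIGAR (1.04), the condensin gene NCAPD2 (1.02), the chaperone gene FKBP4 (1.02), TNFRSF1A (0.95), NOP2 (1.11) and TAPBPL (1.24). NCAPD2 read 800, 935 and 1082 in the Bmi1-shRNA line, against 374, 461 and 497 in the Ctl-shRNA line. Other genes of that part lay lower, among them GAPDH (0.102, not called), CHD4 (0.235) and WNK1 (0.465). RAD52 (1.55) and WNT5B (1.70) lay higher.

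Other chromosomes held stretches of both signs. Chromosome 1 began with 30 runs above 0, with a median of 0.134, and ended with 32 runs of which 31 were below 0, with a median of -0.192. In that last part 318 of 634 genes were lower and 72 higher. MCL1, PSMD4, PSMB4 (-0.25) and ATF6 lie in it, while PTPRC and PLA2G4A (0.97) lie in the same part and were higher. Chromosome 3 gave a median of 0.005 over its first 21 runs, 0.181 over the next 8 and -0.195 over the last 12, where 134 of 246 genes were lower, SOX2 and PSMD2 (-0.27) among them. On chromosome 7 the first 9 runs had a median of -0.015 and the other 25 of 0.119. The runs outside these stretches, 501 in number, had a median of -0.024.

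In genes bright in both lines alone the median was 0.730 (1.66-fold) for the first part of chromosome 12, where 44 of 46 genes were higher and 0 lower. It was 0.567 (1.48-fold) for the first part of chromosome 20, where 117 of 122 were higher and 1 lower. It was 0.394 for chromosome 8 and 0.284 for chromosome 18. For the last parts of chromosomes 1 and 3 it was -0.278 and -0.229. For the runs outside the stretches it was -0.044, with 1091 of 4874 bright genes higher and 1756 lower. Bright means that each line's mean signal lies above the mean 75th percentile of that line's arrays, 117 in the Bmi1-shRNA line and 116 in the Ctl-shRNA line.

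For chromosome 8, the first parts of chromosomes 12 and 20 and the last part of chromosome 1 the arrays of the lines did not overlap. The same held for chromosome 18 and for the runs outside the stretches, so lack of overlap is not particular to these stretches. Relative to the median of all genes on the same array, the chromosome 8 genes stood at 0.153 to 0.196 on the 12 Bmi1-shRNA arrays and at -0.201 to -0.163 on the 12 Ctl-shRNA arrays. Those values are medians of deviations from each gene's mean over the 24 arrays. The first part of chromosome 20 stood at 0.244 to 0.282 on the Bmi1-shRNA arrays and at -0.284 to -0.226 on the Ctl-shRNA arrays, and the first part of chromosome 12 at 0.168 to 0.304 on the Bmi1-shRNA arrays and at -0.348 to -0.238 on the Ctl-shRNA arrays. The last part of chromosome 1 stood at -0.125 to -0.091 on the Bmi1-shRNA arrays and at 0.091 to 0.120 on the Ctl-shRNA arrays. The runs outside the stretches stood at -0.024 to -0.013 on the Bmi1-shRNA arrays and at 0.015 to 0.019 on the Ctl-shRNA arrays. In the dosed arrays the line difference had medians of 0.314 for chromosome 8, 0.254 for chromosome 18, 0.467 for the first part of chromosome 20 and 0.478 for that of chromosome 12. Without 0 h the undosed medians were 0.332, 0.249, 0.487 and 0.462 in the same order.

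The run from PHF3 to TMEM30A on chromosome 6 had a median of -0.38, with 15 of its 20 genes lower and 0 higher. Among all genes 24.2% were lower and 23.2% higher. That run holds B3GAT2, OGFRL1 (-2.71) and CD109 (-3.14), a surface protein that binds TGF-beta. OGFRL1 read 142, 169 and 195 in the Bmi1-shRNA line, against 1068, 1125 and 1200 in the Ctl-shRNA line. The lowest run, from LCIIAR to NOP10 on chromosome 15, had a median of -0.48. Its first 10 genes, LCIIAR to ARHGAP11A, had a median of -0.001 and its last 10, SCG5 to NOP10, one of -0.588. The first 10 were mixed, so these medians do not place a break. KLF13 (-0.683), GOLGA8N (-0.669), ARHGAP11A (-0.62) and FAN1 (-0.386) were called lower there and TJP1 (1.174) higher. The rest of the first 10 were not called, and several were dim. Not all leading genes lay in runs of their own sign or size: BHLHE41 (4.05) lies in a run of chromosome 12 with a median of -0.16, and LAMB3 (3.79) in one of chromosome 1 with 0.10.

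**Figure D4:**
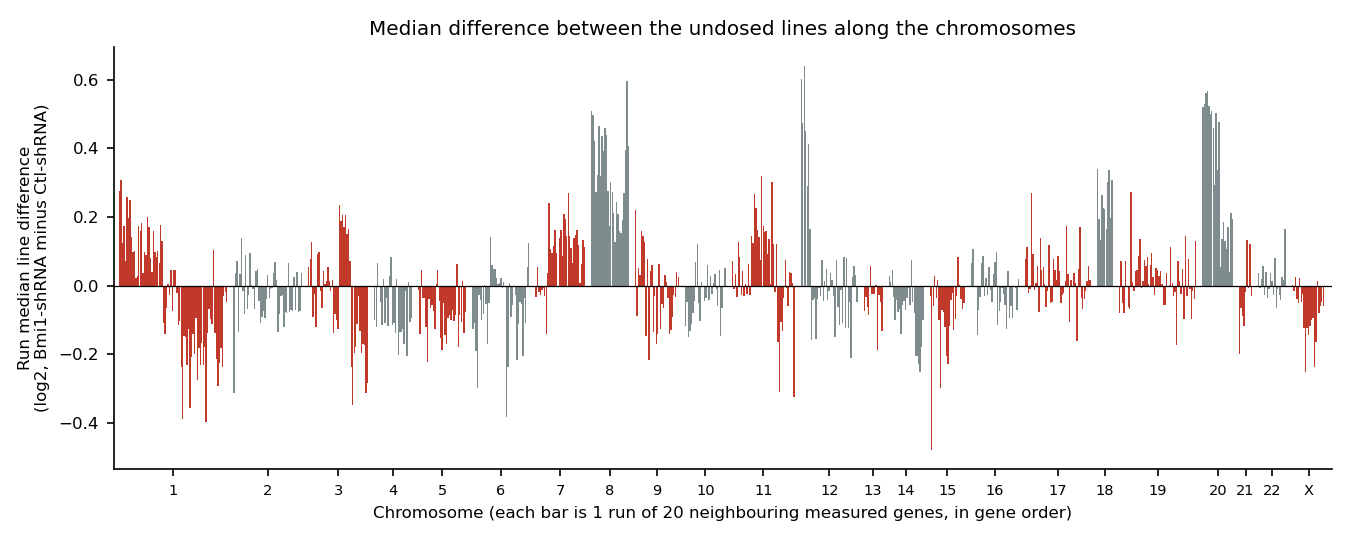
Median line difference of each of 735 runs of 20 neighbouring measured genes (vertical axis, log2, Bmi1-shRNA minus Ctl-shRNA, undosed), in gene order from chromosome 1 to X along the horizontal axis. Bars alternate in colour by chromosome. Chromosomes 8 and 18, the first part of 20 and the first part of 12 stand above 0, and the last parts of 1 and 3 mostly below.

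Few genes were called for a line difference that varied with time. The F test among the 4 times in limma called 20 genes (0.136%), while 1360 had an unadjusted p under 0.05. With 3 arrays a side at each time, smaller changes may be missed. The 5 genes with the smallest p were TNFRSF17, CXCL9, CXCL10, INSIG1 and ID3. TNFRSF17 (BCMA), a survival receptor of plasma cells, averaged 1269 ± 56.1 at 0 h, 1322 ± 94.7 at 24 h, 1346 ± 47.2 at 32 h and 1307 ± 59.3 at 48 h in the Bmi1-shRNA line (SD, n = 3 each). In the Ctl-shRNA line it averaged 1006 ± 47.4, 1318 ± 33.9, 1553 ± 59.7 and 1624 ± 139 at the same times, so the line difference changed sign between 0 and 48 h (adjusted p = 9.03e-05, limma). CXCL9 averaged 771 ± 16.3 at 0 h and 688 ± 26.5 at 48 h in the Bmi1-shRNA line, against 218 ± 5.87 and 92.8 ± 7.43 in the Ctl-shRNA line, and its line difference was 1.8 at 0 h and 2.82 at 48 h (adjusted p = 9.03e-05). INSIG1, a brake on cholesterol synthesis, was 0.60 at 0 h and -0.05 at 48 h. ID3, an inhibitor of bHLH factors, was 0.55 at 0 h and -0.87 at 24 h.

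At 0 h the labels of the Bmi1-shRNA arrays conflict. Among 24, 32 and 48 h alone the F test in limma called 0 genes, with 952 at an unadjusted p under 0.05 and a lowest adjusted p of 0.211.

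**Figure D5:**
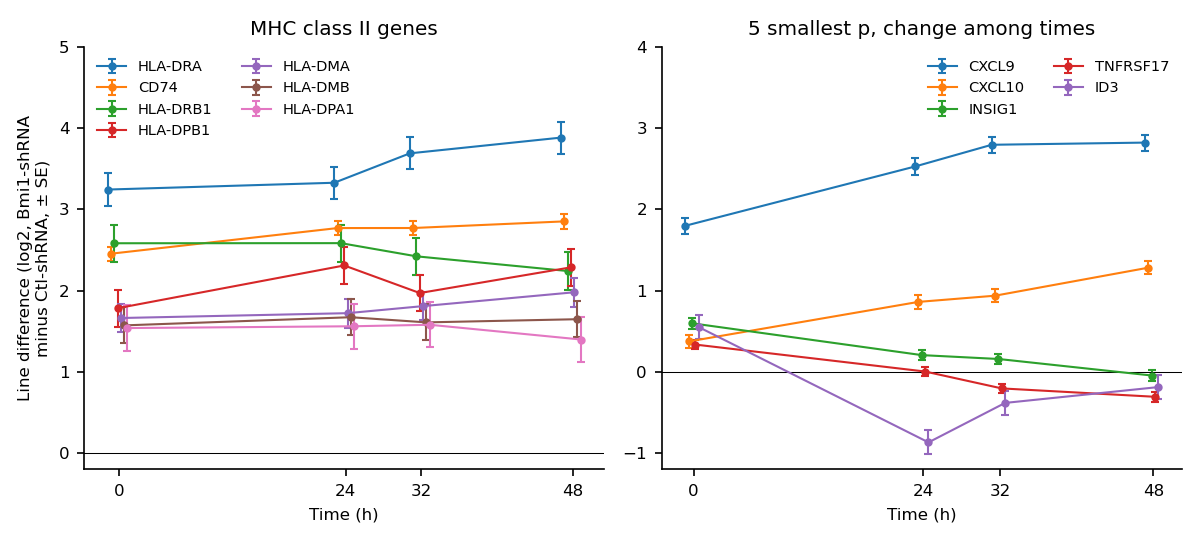
Line difference (vertical axis, log2, Bmi1-shRNA minus Ctl-shRNA, undosed, 3 arrays a side at each time) against time in hours. Points are fitted differences and bars are ± SE, shifted a little sideways for legibility. The 7 MHC class II genes on the left stay between 1.40 and 3.88 at each time, and on the right CXCL9 and CXCL10 are higher at 48 h than at 0 h while TNFRSF17 and INSIG1 are lower.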

How the data were processed

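Total RNA of RPMI-8226 derivatives was labelled as biotinylated cRNA and hybridised to Affymetrix U133 Plus 2 arrays, per the labels. The deposited values are intensity values that the authors made with MAS5, per the submitters' processing notes, which give no version. In the deposited tables every array had a trimmed mean between 149.97 and 149.98 (2% trimmed at each end), which was checked, so a shift of all genes cannot be seen. Arrays give no read depth, and their number limits the precision.

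Of 54675 probe sets, 62 controls were left out. Of the rest 41091 were annotated to a single gene, 1800 to several and 11721 to none. Probe sets at or above the array median on at least 3 of 42 arrays were retained, 35232 in all, and each gene was read from its brightest one, 14705 genes with BMI1. Values were tested as log2(signal + 5.4), the pseudocount being the 25th percentile of all values. A fold change of a dim gene is understated on that scale. limma 3.58.1 in R 4.3.3 fitted the 14 group means on all 42 arrays with an intensity trend and 28 residual degrees of freedom. Python 3.11.15, pandas 2.3.3 and numpy 2.4.6 made the summaries. On data simulated for the difference over 4 times, with 14705 genes, 79% of genes changed by 0.5 (log2) and 89% of those changed by 1 were called, with 8 false calls.

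The genes named are the 12 highest and 12 lowest, the switch-like genes, the 5 whose difference varied most over time, a list of myeloma and BMI1 genes, and leading members of 51 gene lists holding 1121 measured genes. Others, such as the X-linked and chromosome examples, were chosen after their values were seen. The comparison, the lists and the genes were chosen with earlier results of these data known. Same-numbered arrays did not deviate together (mean r 0), so no pairing was used. Chromosome order came from RefSeq GRCh38.p14, which matched 14675 genes. Alternatives were other pseudocounts, quantile normalization, other filters and probe set rules, no trend, a replicate block and leaving out arrays.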

Additional observations from a re-analysis of the deposited data

Results flagged for a closer look

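The line difference varied among 0, 24, 32 and 48 h for 10 of the genes named, by a test of that variation itself (limma F test, Benjamini-Hochberg adjusted p over 14705 genes). The adjusted p was 9.03e-05 for TNFRSF17 and 9.03e-05 for CXCL9, 0.000202 for CXCL10, 0.00158 for INSIG1 and 0.00242 for ID3. At 0, 24, 32 and 48 h the log2 difference of CXCL10 was 0.37, 0.86, 0.94 and 1.28, and that of TNFRSF17 was 0.33, 0.00, -0.21 and -0.31. For LTB, a lymphotoxin subunit, the adjusted p was 0.0112, with a log2 difference of -1.60 at 0 h and -0.63 at 48 h. For the lipid synthesis genes DHCR7 and ELOVL6 it was 0.0117 and 0.0135, with 0.92 at 0 h and 0.19 at 48 h for DHCR7 and -0.66 and -1.03 for ELOVL6. For the histone gene H2BC12 it was 0.0135, with -1.14 at 0 h and -0.58 at 48 h, and for IRF4 it was 0.0255, with 0.32 at 0 h and -0.07 at 48 h. At 0 h the labels of the Bmi1-shRNA arrays conflict.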

How the results depend on the processing

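The count of called genes over 4 times, 6977, was 6953 with a pseudocount of 1, 6938 with none, 7093 after quantile normalization, 6915 without the filter and 6995 with a replicate block. Testing all probe sets gave 12214 for the line difference over 4 times, 11127 for the line difference over 3 times, 6712 for the line difference at 0 h, 7023 for the line difference at 24 h, 6518 for the line difference at 32 h, 6436 for the line difference at 48 h, 11861 for the line difference in dosed arrays, 573 and 495 at 2-fold higher and lower, and 31 varying among times. A filter at the 75th percentile left 179 at 2-fold higher and 130 lower, from fewer genes, and a pseudocount at the median 187 lower. A test against a log2 difference of 0.5 called 1070. Genes varying among times, 20, were 11 without the intensity trend and 0 over 24, 32 and 48 h alone. The 7 switch-like genes were 0 with the 90th percentile and 11 over 24, 32 and 48 h. The median of the first part of chromosome 12 was 0.730 in bright genes, against 0.460. The alternatives for these chromosome stretches were chosen after seeing the data.

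Leaving out 1 array at a time gave 6785 to 6927 called genes over 4 times, 327 to 338 at 2-fold higher and 308 to 318 lower, 6213 to 6345 over 3 times, and 6581 to 6746 in dosed arrays. Single times gave 3477 to 3655 at 0 h, 3751 to 3876 at 24 h, 3476 to 3656 at 32 h and 3446 to 3572 at 48 h. Genes varying among times were 10 to 22. That count was 13 or lower without Ctl-shRNA array 2 at 24 h, arrays 2 or 3 at 48 h or arrays 1 or 3 at 0 h, and without any of the Bmi1-shRNA arrays at 0 h. XBP1, not called, turned to 0.02 after quantile normalization. MAF, not called, passed the test in 3 alternatives, and TNFRSF17 in 1. Dim signals limit the size of the fold change of genes near background in one line.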
